A study of Saccharomyces cerevisiae W303 with 8 samples.

Results

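The core autophagy genes described here are 10 genes of the budding yeast Saccharomyces cerevisiae that encode parts of the machinery that builds autophagosomes: ATG1, ATG2, ATG4, ATG5, ATG7, ATG8, ATG9, ATG12, ATG13 and ATG14. They were chosen by name and found on the array by systematic name, as YGL180W, YNL242W, YNL223W, YPL149W, YHR171W, YBL078C, YDL149W, YBR217W, YPR185W and YBR128C in that order, 10 of 6228 systematic names in all. Each had 1 probe, printed in 2 spots, and all 10 probes stood well above background for Cy5 and Cy3 alike on each of the 8 arrays. RNA was measured in 2 strains of W303 background grown in YPD at 30 °C and harvested 0, 10, 20 and 30 min after NaCl was added to 0.4 M, with 1 array for each strain and time. The control strain is labelled msn2msn4 pMsn2pMsn2DNES and the other, called the cdc55 strain here, msn2msn4cdc55 pMsn2pMsn2DNES. Both therefore carry, per the labels, deletions of MSN2 and MSN4, a pair of related stress transcription factors, and the same plasmid. The plasmid's name, pMsn2pMsn2DNES, includes Msn2, so these cells cannot be taken to lack Msn2. No strain here has the wild-type genotype at these loci. The labels do not say how many clones or cultures stand behind a strain. CDC55 encodes a regulatory B subunit of protein phosphatase PP2A, and the series asks how this form of PP2A acts on the transcriptional response to hyperosmolarity. Each sample was labelled with Cy5 and hybridised with Cy3-labelled RNA from untreated control cells, the same reference on every array. A log2 ratio of Cy5 over Cy3 above 0 thus means more RNA of a gene than in that reference, and where 4 values follow each other they stand in the order 0, 10, 20 and 30 min.

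In autophagy a double membrane closes around cytoplasm or a chosen cargo and delivers it to the vacuole, where hydrolases break it down. The Atg1 kinase with Atg13 starts the process, vesicles that carry Atg9 and the lipid transfer protein Atg2 supply membrane, and a phosphatidylinositol 3-kinase complex that holds Atg14 marks the site. In 2 linked conjugation reactions Atg7 activates the ubiquitin-like proteins Atg12 and Atg8, Atg12 is joined to Atg5, and Atg8, trimmed by the protease Atg4, is joined to phosphatidylethanolamine in the membrane. In yeast the process is best known as a response to starvation, during which ATG8 is among the genes of the pathway known to be transcribed more.

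After NaCl 3 of the 10 core autophagy genes passed the test upward in the control strain, ATG8, ATG7 and ATG14, where 7.66% of all probes were called higher, and the other 7 did not pass. ATG8, which encodes the lipid-conjugated protein of the autophagosome membrane, rose 3.75-fold in the control strain and 2.34-fold in the cdc55 strain, averaged over 10 to 30 min. ATG7 rose 2.58-fold and ATG14 2.52-fold in the control strain. In the cdc55 strain ATG8 was the 1 gene of the 10 that passed, where 2.88% of all probes were called higher. The mean change was above 0 for all 10 genes in both strains, and for 50.2% and 51.2% of all probes in control and cdc55. Before NaCl the cdc55 array already stood above the control array for ATG1 and ATG8. At 30 min it stood below the control array for all 10 genes, where 54.2% of all probes were lower. Averaged over 10 to 30 min, no difference between the strains passed the test for any of the 10. The difference at 30 min alone was not tested.

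The precision of these values rests on single arrays, and the standard errors and p-values measure how the arrays scattered around the fitted model, not how cultures of a group differ. The 0 min arrays, 1 per strain, are fitted exactly, so each response is set against an arm that adds no spread of its own. The 2 residual degrees of freedom come from the stressed arrays. Each time has its own term, so they hold only how the strain difference varied over the stressed times. The standard error of a response thus leaves out how a strain's own values varied over these times. It is larger where the strain difference changed with time. For ATG1, cdc55 minus control went from 0.83 at 10 min to -0.33 at 30 min, and each response had an SE of 0.33. Passing or missing the test is therefore no measure of how steady a response to NaCl was. The control array at 0 min holds the same kind of RNA in both channels, and its log2 ratios had an SD of 0.15 over the 6108 probes tested, with the 10 genes between -0.16 and 0.21. The spots of a pair differed by a median of 0.0847 log2 for these genes and by at most 0.471, for ATG4 in the cdc55 strain at 30 min. CDC55 itself read 0.15, 0.17, 0.14 and 0.45 in the control strain, against -0.51, -0.21, -0.44 and -0.54 in the cdc55 strain. It was thus lower in all 4 arrays of the strain labelled as its deletion, by 0.65 ± 0.16 log2 (SE) under stress, without passing the test (limma adjusted p = 0.0883), and the files do not show where its probe lies against the deleted part. MSN4, labelled as deleted in both strains, read 0.01 and -0.13 at 0 min in control and cdc55 and between 0.75 and 1.16 on all 6 stressed arrays, so its probe gave a signal that rose with NaCl (limma adjusted p = 0.0244 and 0.0434), which its label does not account for. Median Cy5 signals of the arrays lay between 5523 and 13697 over backgrounds of 44 to 54. Of the arrays, 4 are used under another sample than the record attaches them to, since the deposited value table showed 2 pairs of files to be exchanged. The 0 min array of either strain and the control array of 10 min come as files of a different layout, and in the cdc55 strain this cannot be told apart from the response to NaCl. Nor can it be told apart from the strain difference at 10 min, which enters the averaged strain difference under stress. Non-uniform spots numbered 290 and 277 on the control arrays of 0 and 10 min, against 6 to 30 on the other arrays. RNA came from whole cultures, so a change in every cell and a larger change in some cells cannot be told apart.

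The genes that start autophagy did not pass in either strain. ATG1, the kinase, read -0.01, 0.84, 1.45 and 1.23 in the control strain, against 1.01, 1.68, 1.96 and 0.90 in the cdc55 strain. All 3 stressed control arrays stood above the unstressed one, whereas in the cdc55 strain the 30 min array stood slightly below it. The mean change after NaCl was 1.19 ± 0.33 log2 (SE) in the control strain (limma adjusted p = 0.0632) and 0.50 ± 0.33 in the cdc55 strain (adjusted p = 0.388), neither past 0.05. ATG13, which binds Atg1 and carries the nutrient signal to it, read 0.20, 0.32, 0.57 and 0.83 in the control strain, against 0.21, 0.37, 0.70 and 0.30 in the cdc55 strain. The control value at 10 min rests on 1 spot, since the other was non-uniform. The stressed arrays of ATG13 lay above the unstressed one in both strains by less than 1 log2, and the mean changes of 0.37 ± 0.24 and 0.24 ± 0.24 did not pass.

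ATG14, the subunit that directs the lipid kinase complex to autophagy, responded early. It read 0.06, 1.72, 1.50 and 0.95 in the control strain, against 0.06, 1.21, 0.85 and 0.48 in the cdc55 strain. The strains started level, both were highest at 10 min, and every stressed array of the cdc55 strain lay below the control array of the same time. The mean change came to 1.33 ± 0.17 log2 in the control strain (limma adjusted p = 0.0130) and 0.78 ± 0.17 in the cdc55 strain (adjusted p = 0.0657), so ATG14 rose in the first and missed the threshold in the second. In the cdc55 strain it passed under 6 of the 12 alternative settings, with adjusted p from 0.00320 to 0.991 over all 12. The value of 0.00320 came with a strain term constant over time, which makes both strains' responses equal by construction. Among these 6, the scanner software's log ratio and the deposited value table hold nearly the same values.

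The membrane suppliers showed smaller mean changes than ATG14 in both strains. ATG9, the membrane protein of the seed vesicles, read 0.13, 0.23, 1.06 and 1.02 in the control strain, against 0.42, 0.55, 1.18 and 0.64 in the cdc55 strain. ATG2, the lipid transfer protein, read 0.21, 0.08, 0.76 and 0.86 in the control strain, against -0.18, 0.08, 0.72 and 0.08 in the cdc55 strain. Both genes had moved little at 10 min, when ATG2 lay below its 0 min value in the control strain, and both were highest at 20 or 30 min. The mean changes, 0.64 ± 0.24 and 0.37 ± 0.24 for ATG9 and 0.36 ± 0.27 and 0.48 ± 0.27 for ATG2 in control and cdc55, did not pass.

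The conjugation genes held both the largest and the smallest responses of the 10. ATG8 read -0.16, 1.31, 2.23 and 1.70 in the control strain, against 0.57, 1.72, 2.10 and 1.56 in the cdc55 strain. The stressed arrays of the strains overlapped, while the unstressed cdc55 array stood above the unstressed control array. The mean change was 1.91 ± 0.22 log2 in the control strain (limma adjusted p = 0.00965) and 1.23 ± 0.22 in the cdc55 strain (adjusted p = 0.0444). ATG7, the activating enzyme shared by both conjugation reactions, read -0.14, 0.77, 1.81 and 1.11 in the control strain, against 0.30, 1.00, 1.60 and 1.03 in the cdc55 strain. It followed the same course as ATG8 at a lower height, highest at 20 min in both strains. Its mean change was 1.37 ± 0.20 log2 in the control strain (limma adjusted p = 0.0172) and 0.91 ± 0.20 in the cdc55 strain (adjusted p = 0.0648).

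ATG4, the protease that trims Atg8, read -0.03, 0.66, 1.21 and 0.79 in the control strain, against 0.03, 0.92, 0.94 and -0.17 in the cdc55 strain. It was slightly below its starting value at 30 min in the cdc55 strain, on the array where its spots also disagreed most, and still above it in the control strain. ATG5, which is joined to Atg12, read -0.11, 0.97, 0.84 and -0.39 in the control strain, against -0.27, 1.55, 0.43 and -0.45 in the cdc55 strain. Its value was high at 10 min and below the starting value at 30 min in both strains. ATG12 read -0.08, 0.26, 0.45 and -0.01 in the control strain, against 0.05, 0.32, 0.28 and -0.08 in the cdc55 strain, the flattest course of the 10. None of these 3 genes passed in either strain, with control changes of 0.92 ± 0.33 for ATG4, 0.58 ± 0.29 for ATG5 and 0.31 ± 0.17 for ATG12.

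**Figure D1:**
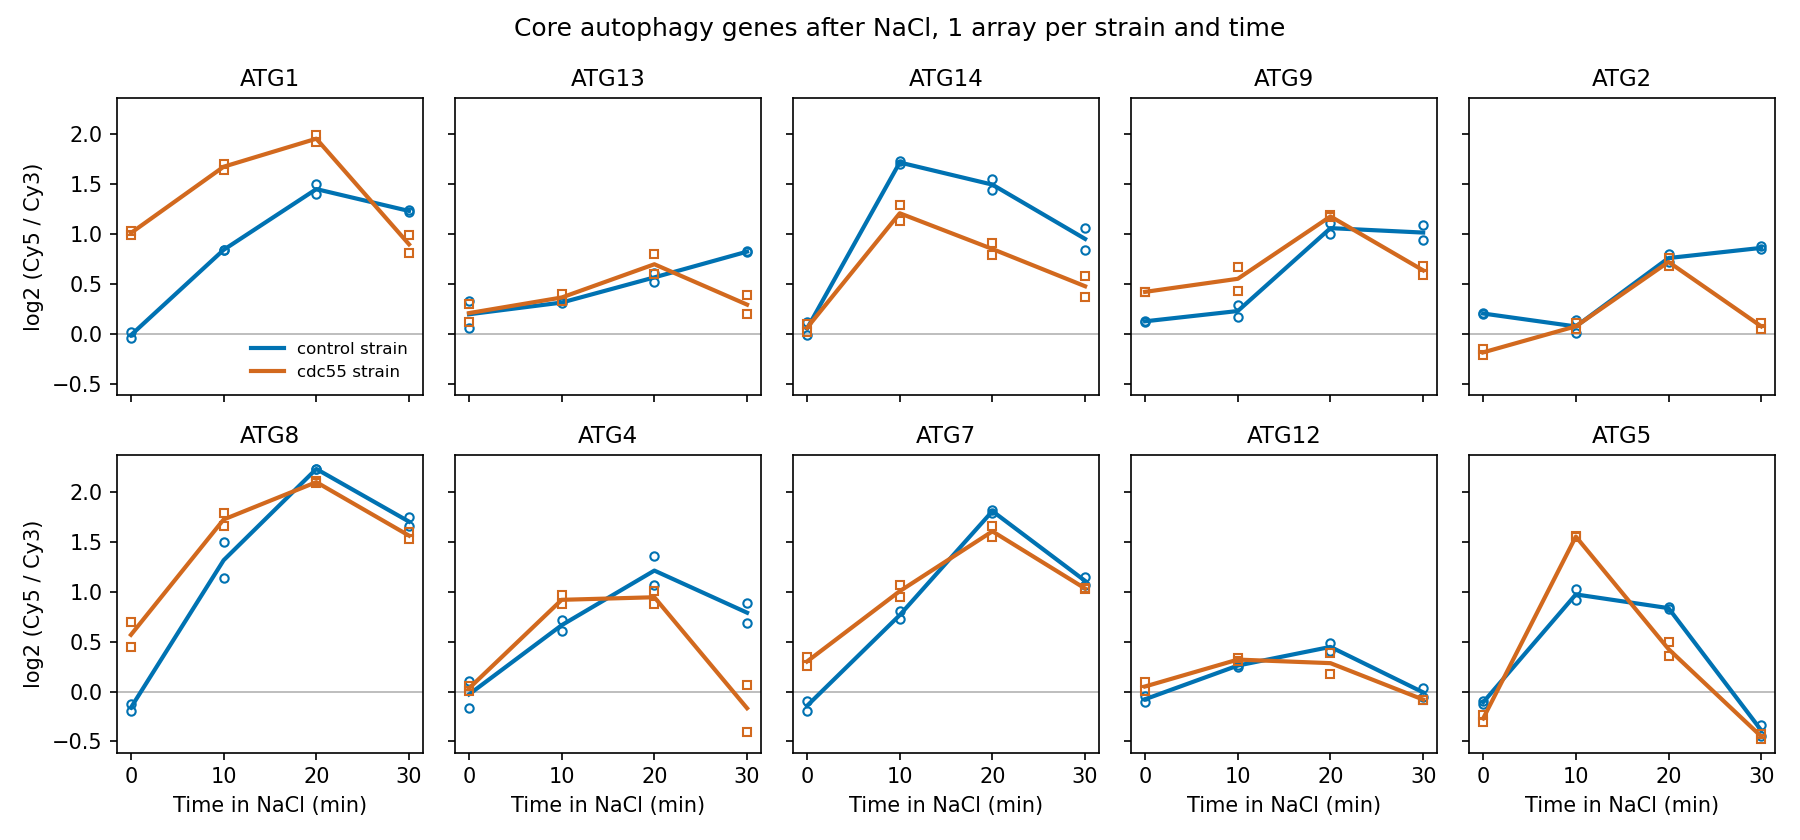
Log2 ratio of Cy5 over Cy3 (y axis) against minutes after NaCl (x axis) for each of the 10 core autophagy genes, 1 panel a gene. A line joins the array means of each strain, and open symbols mark the 2 spots of the probe on each array. ATG13 in the control strain at 10 min has 1 usable spot. ATG8 reaches 2.23 and 2.10 at 20 min, ATG14 is highest at 10 min, and the cdc55 line ends below the control line in every panel at 30 min.

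As a group, 3 of the 10 genes passed upward in the control strain, where 7.66% of all 6108 probes were called higher by limma at an adjusted p under 0.05, and none passed downward, where 5.89% were called lower. All 10 changes were above 0 with a median of 0.78 log2, while 50.2% of all probes were above 0 and their median was 0.00. In the cdc55 strain 1 of 10 passed upward, with 2.88% of all probes called higher and 1.31% lower. The 10 changes were again all above 0, as were 51.2% over all probes, and their median of 0.52 compares with 0.01 over all probes. Without the 20 min arrays none of these calls passed, while the changes stayed close in size: 1.67 log2 for ATG8, 1.08 for ATG7 and 1.28 for ATG14 in the control strain (limma adjusted p = 0.107, 0.153 and 0.110) and 1.07 for ATG8 in the cdc55 strain (0.278). The calls over all probes fell in that fit from 828 to 33 in the control strain and from 256 to 13 in the cdc55 strain. Without the 10 min arrays 6 of the 10 genes passed in the control strain and 2 in the cdc55 strain, and without the 30 min arrays 5 and 3. The calls over all probes grew as well. In control and cdc55, 861 and 454 of 6108 probes were called higher without 10 min, and 560 and 465 without 30 min. With all arrays these counts were 468 and 176. Over the 12 alternative settings the adjusted p of ATG8 ranged from 1.79e-05 to 0.779 in the control strain and from 0.00204 to 0.991 in the cdc55 strain, the highest values coming from the files as attached in the record. For scale, HSP12, a gene of the general stress response that encodes a membrane-protecting protein, rose by 6.61 log2 in the control strain and 6.49 in the cdc55 strain (limma adjusted p = 0.000700 and 0.000773), and CTT1, which encodes cytosolic catalase, by 6.92 and 6.14 (adjusted p = 0.000938 and 0.00193).

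**Figure D2:**
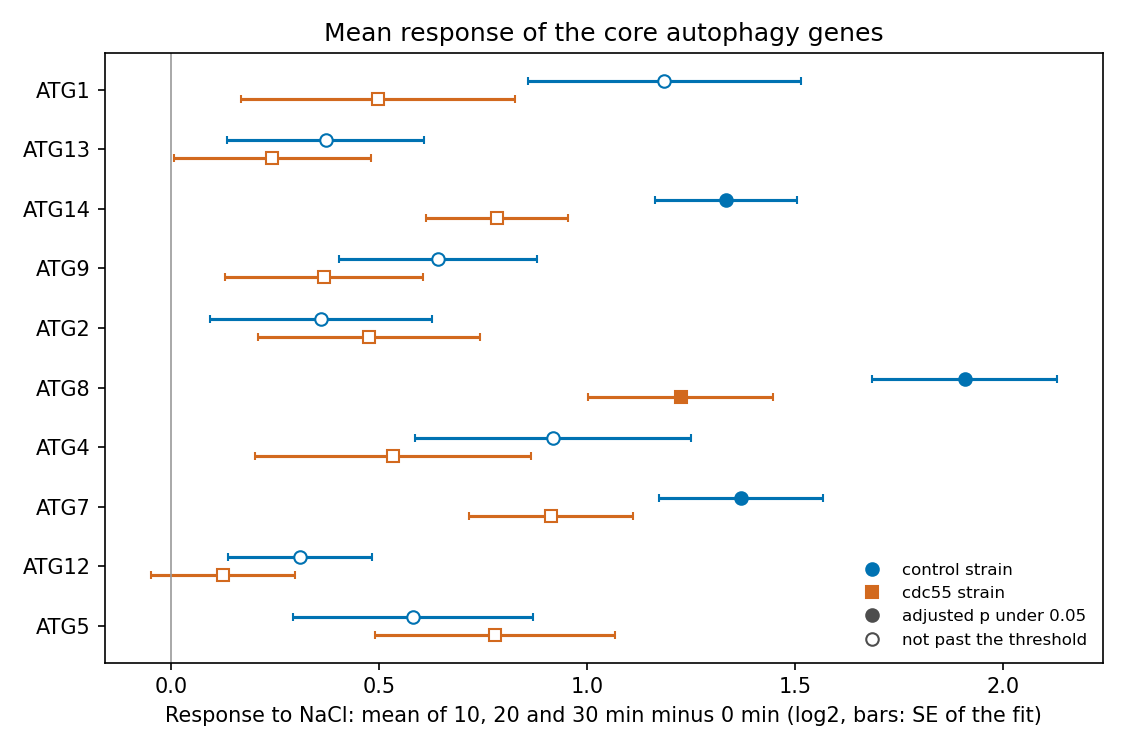
Mean log2 change after NaCl (10 to 30 min against 0 min) for each core autophagy gene in the control and the cdc55 strain, with bars for the standard error of the moderated limma fit. Filled points passed an adjusted p of 0.05: ATG8, ATG7 and ATG14 in the control strain and ATG8 in the cdc55 strain.

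The genes differed in the time of their highest array, given here as a description of single arrays. In the control strain ATG5 and ATG14 were highest at 10 min, ATG1, ATG4, ATG7, ATG8, ATG9 and ATG12 at 20 min, and ATG2 and ATG13 at 30 min. Of all probes 38.8%, 24.1% and 37.1% had their highest stressed value at these times. In the cdc55 strain ATG5, ATG12 and ATG14 were highest at 10 min and the other 7 genes at 20 min, with no gene of the 10 highest at 30 min. Of all probes 35.4% were highest at 10 min there, 31.7% at 20 min and the rest at 30 min. Some of these times rest on leads over the next time below 0.15 log2, the SD of the control array at 0 min. In the control strain the lead was 0.04 for ATG9, 0.10 for ATG2 and 0.14 for ATG5. In the cdc55 strain it was 0.03 for ATG4 and 0.04 for ATG12. A lead is a difference of 2 arrays, so leads slightly above 0.15 are not firm either. In the control strain these were 0.19 for ATG12 and 0.22 for both ATG1 and ATG14.

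Counted over 1 log2 above the strain's own 0 min array, the control strain had 3 of the 10 genes at 10 min (ATG5, ATG8 and ATG14; 6.3% of all probes), 5 at 20 min (ATG1, ATG4, ATG7, ATG8 and ATG14; 8.3%) and 3 at 30 min (ATG1, ATG7 and ATG8; 6.53%). The cdc55 strain had 3 at 10 min (ATG5, ATG8 and ATG14; 5.88%), 2 at 20 min (ATG7 and ATG8; 6.42%) and 0 at 30 min (3.26%). ATG8 fell just short of the cutoff in the cdc55 strain at 30 min, at 0.99 log2. At 10, 20 and 30 min the 10 genes stood above their own 0 min value by a median of 0.77, 1.09 and 0.85 log2 in control cells, against 0.68, 0.85 and 0.15 in cdc55 cells. From 20 to 30 min, 8 of the 10 genes went down in value in the control strain, with a median step of -0.44, and 10 of 10 did so in the cdc55 strain, with a median step of -0.56. Over all probes the values went down in 44.7% and 55.0% respectively. The cdc55 values rest on a 0 min array that was itself high for ATG1 and ATG8, and for these genes the height above 0 min and the level are different quantities.

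Before NaCl the single arrays of the strains read differently for some of these genes. At 0 min ATG1 was 1.02 log2 higher in the cdc55 strain than in the control strain, a 2.03-fold difference, and 0.49% of all probes were at least as far above. ATG8 was 0.73 log2 higher, a height reached by 1.47% of probes, and ATG7 0.44 log2 higher, reached by 7.38%. ATG2 was 0.39 log2 lower. ATG1 was the 1 gene of the 10 more than 1 log2 higher at that time, as 0.524% of all probes were. ATG14 and ATG13 differed by 0.01 each. There is 1 array per strain at 0 min, so these differences have no test of their own and the spread between cultures is unknown.

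Counted by sign, the cdc55 value lay below the control value for 2 of the 10 genes at 0 min (49.4% of all probes lower), 1 at 10 min (51%), 7 at 20 min (46%) and 10 at 30 min (54.2%). It lay above for the other 8, 9, 3 and 0 genes, where 50.6%, 49%, 53.9% and 45.8% of all probes did. The medians of the differences, cdc55 minus control, were 0.09, 0.25, -0.15 and -0.36 log2. At 30 min ATG4 stood farthest below the control value, by -0.96 log2, followed by ATG2 at -0.79 and ATG13 at -0.53. ATG14, ATG9 and ATG1 differed by -0.47, -0.38 and -0.33. ATG8, ATG7, ATG12 and ATG5 lay nearest to 0, at -0.14, -0.08, -0.07 and -0.06. The count of 10 at 30 min was the same with no background subtraction, with the scanner software's log ratio, with median centring and in the deposited value table, all of which use the same 2 arrays. With 1 array per strain, the difference at 30 min has no test of its own. The counts at the earlier times moved under these 4 settings, to 3 or 4 at 0 min, to 1 or 2 at 10 min and to 6 or 7 at 20 min.

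**Figure D3:**
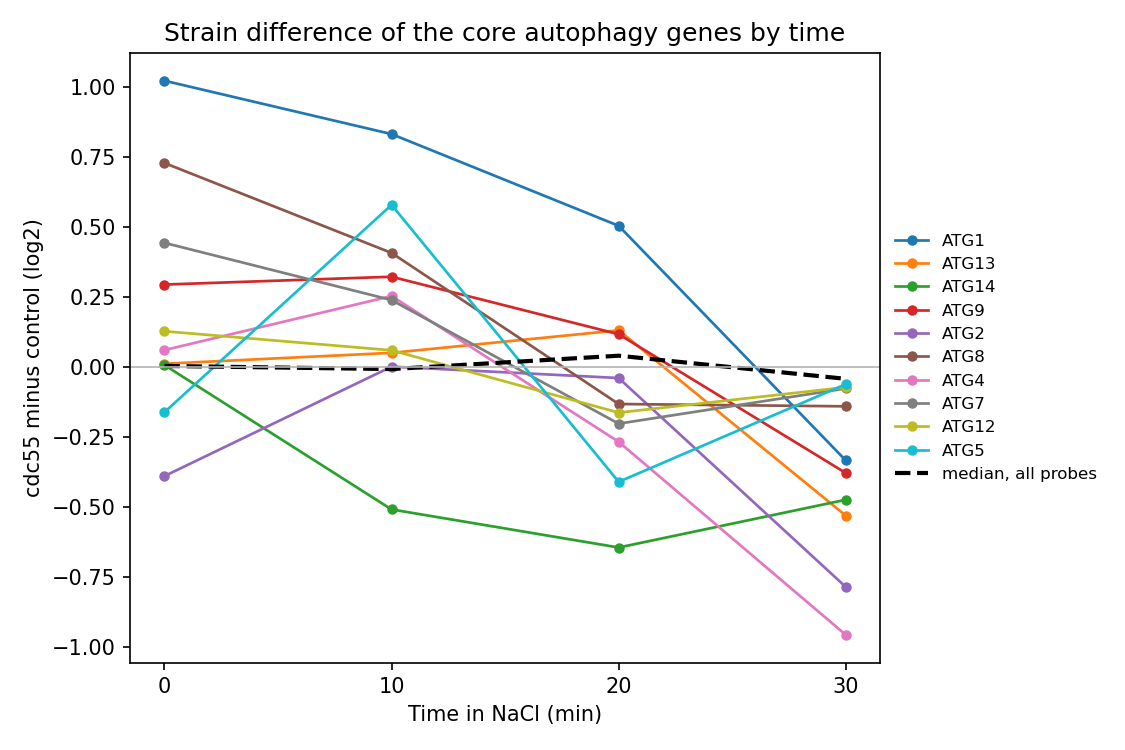
Difference in log2 ratio, cdc55 minus control (y axis), at 0, 10, 20 and 30 min (x axis), with 1 line for each core autophagy gene and the median of all probes for comparison. ATG1 starts at 1.02 and ATG8 at 0.73, and all 10 lines lie below 0 at 30 min, ATG4 lowest at -0.96.

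In the test of the strain difference under stress, averaged over 10, 20 and 30 min, 0 of the 10 genes passed by limma, beside 0.36% of all probes called higher and 1.85% called lower. At an unadjusted p under 0.05 there was 1 of 10, ATG14, beside 1502 of all 6108 probes. ATG14 was lower in the cdc55 strain by -0.54 ± 0.12 log2 (95% CI -0.84 to -0.25, limma adjusted p = 0.0774), with all 3 stressed cdc55 arrays below their control array. It passed under 4 of 12 alternative settings, with adjusted p between 0.0419 and 0.0470, over a range of 0.0419 to 0.9998 for all 12. Among these 4, the scanner software's log ratio and the deposited value table hold nearly the same values. ATG1 leaned the other way at 0.33 ± 0.23 (95% CI -0.24 to 0.91), which did not pass. For ATG8 the difference was 0.05 (95% CI -0.34 to 0.43) and for ATG7 -0.01 (95% CI -0.35 to 0.33), and these intervals do not show that the strains had equal levels. The median over the 10 genes was -0.04. At 10, 20 and 30 min taken singly the medians were 0.25, -0.15 and -0.36, so this averaged test does not address the 30 min arrays alone.

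The strains' responses, each counted from its own 0 min array, were also compared directly. No probe passed in this test by limma, 0% in either direction, with 81 of 6108 at an unadjusted p under 0.05, and 0 of the 10 genes at that level. The response was smaller in the cdc55 strain by value for 8 of the 10, with a median difference of -0.33 log2. Over all probes this difference was above 0 for 52.9%, with a median of 0.02. The intervals were wide: ATG8 differed by -0.68 ± 0.31 (95% CI -1.45 to 0.09), ATG1 by -0.69 ± 0.47 (95% CI -1.83 to 0.45) and ATG14 by -0.55 ± 0.24 (95% CI -1.14 to 0.04). For ATG8 and ATG1 the higher 0 min value of the cdc55 strain enters this difference, and for ATG14, level at 0 min, the lower stressed values do. That ATG7 and ATG14 passed in the control strain and not in the cdc55 strain therefore does not show that the strains differ in them.

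Around these 10 genes, 50 other genes of autophagy and its control were measured, and 9 of them rose in the control strain and 4 in the cdc55 strain, with 0 lower in either, where 7.66% and 2.88% of all probes were called higher. The receptors that choose cargo, and the cargo itself, held most of these calls, with 7 of 10 in the control strain and 4 of 10 in the cdc55 strain, beside the same 7.66% and 2.88% of all probes. ATG39, the receptor for selective autophagy of the nucleus and perinuclear endoplasmic reticulum, rose by 1.66 ± 0.19 log2 in the control strain (limma adjusted p = 0.00946). APE1, the vacuolar aminopeptidase carried by the Cvt pathway, rose by 1.45 in the control strain and 1.72 in the cdc55 strain. Its receptor ATG19 rose by 1.43 in the control strain, ATG36, the receptor for peroxisomes, by 1.35 and 1.47 in control and cdc55, and ATG40, a receptor for the endoplasmic reticulum, by 1.06 in the control strain. AMS1, the vacuolar alpha-mannosidase, rose by 1.03 and 1.11, and ATG34, its receptor under starvation, by 0.89 and 0.91.

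Of 7 genes for breakdown in the vacuole, PEP4, the aspartyl protease that activates other hydrolases, rose by 1.05 and ATG22, a transporter that returns amino acids, by 0.79 in the control strain, and none passed in the cdc55 strain. The remaining groups had no call in either strain. Among 4 further genes of the Atg1 complex the farthest from 0 was the scaffold subunit ATG29 in the control strain, at 0.88 (limma adjusted p = 0.0528), and ATG31 in the cdc55 strain, at 0.63. Among 4 of the lipid kinase complex it was ATG38, a linker of its subunits, at 0.54 and 0.67. Among 3 further conjugation genes it was ATG3, the enzyme that hands Atg8 to the lipid, at 0.71 and 0.61. Among 7 of Atg9 cycling and lipid transfer it was the sorting nexin ATG20 at 1.00 (limma adjusted p = 0.0502) and 0.75. Among 15 regulators, which lie upstream of the machinery, it was UME6, a repressor known to act on ATG8, at 0.49 in the control strain and the kinase SCH9 at -0.44 in the cdc55 strain.

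Between the stressed strains 1 of these 60 genes passed, ATG39, a share near that of all probes called lower, 1.85%. It read 0.02, 1.33, 1.72 and 1.98 in the control strain, against -0.18, 0.51, 0.82 and 0.77 in the cdc55 strain. The stressed arrays of the strains did not overlap. ATG39 was lower in the cdc55 strain under stress by -0.98 ± 0.14 log2 (limma adjusted p = 0.0358, from 0.00204 to 1.00 over 12 alternatives). Without the 20 min arrays the difference was -1.02 (adjusted p = 0.297) and without the 30 min arrays -0.86 (0.120), close in size, while the calls over all probes fell from 135 to 0 and 29.

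**Figure D4:**
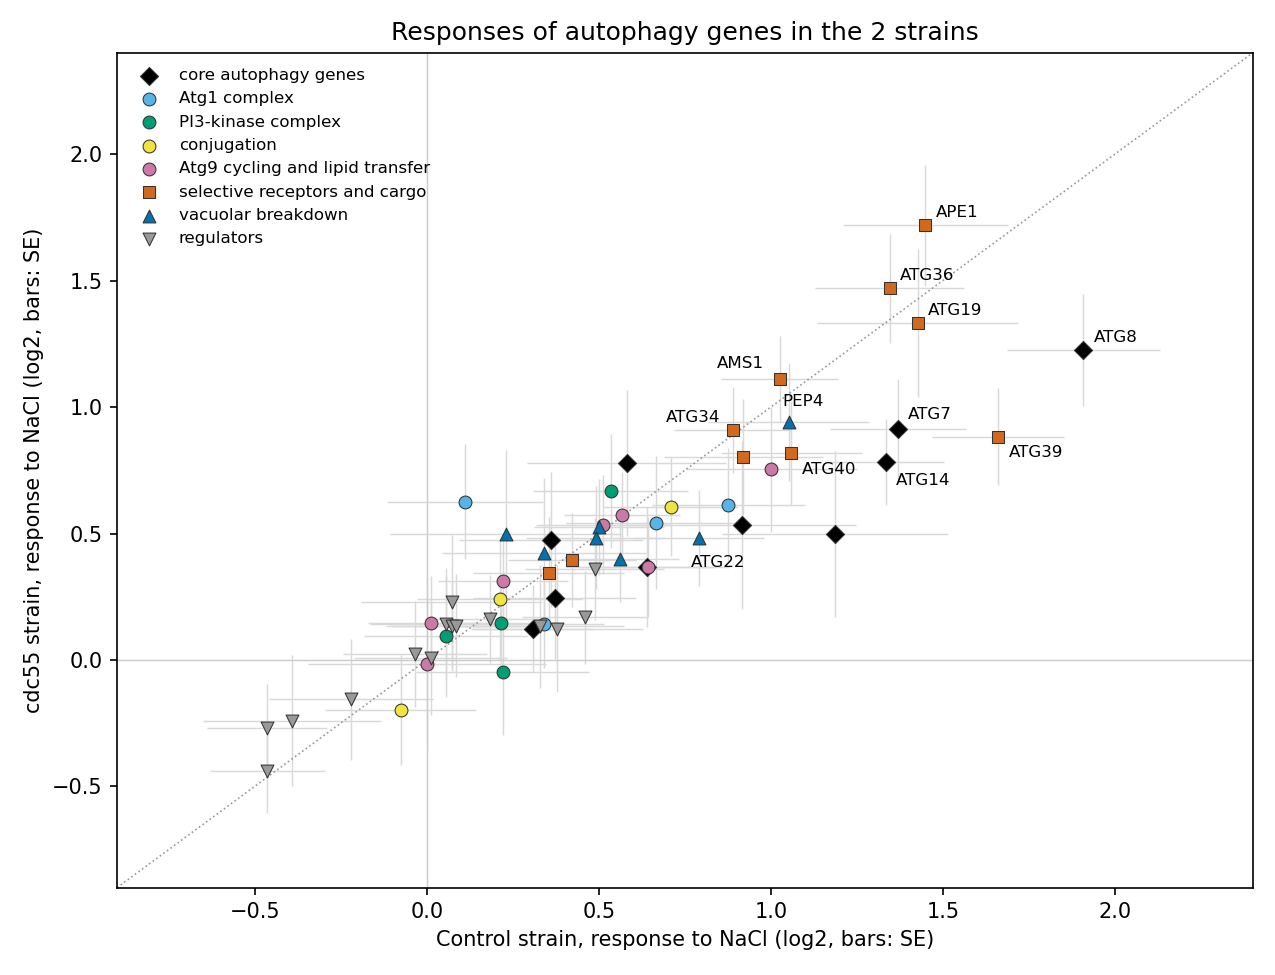
Mean log2 change after NaCl in the cdc55 strain (y axis) against that in the control strain (x axis) for the 10 core autophagy genes (black diamonds) and 50 other autophagy genes by group, with bars for standard errors and a dotted line where the strains are equal. Labelled genes passed an adjusted p of 0.05 in the control strain, and most cargo receptors lie in the upper right with ATG8 and ATG7.

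Over the 8 arrays, the genes whose values lay closest to those of ATG8 were not core autophagy genes. By root mean square difference of the log2 ratios the nearest 5 probes were CUZ1, a zinc finger protein that binds Cdc48, at 0.20, PRX1, the mitochondrial peroxiredoxin, at 0.22, GGA1, a Golgi adaptor of vesicle sorting, at 0.22, UGA2, a succinate semialdehyde dehydrogenase, at 0.23, and FMP23 at 0.24. All 5 had their stressed values between 1.04 and 2.27 and an unstressed cdc55 value above the control one. Since the 5 were chosen for likeness to ATG8 on these same arrays, both traits follow largely from that choice. Among the other 9 core genes ATG1 was nearest at 0.46, with 45 probes closer, then ATG7 at 0.49 with 55 and ATG14 at 0.75 with 233. The order of near neighbours is unstable: 2 of the 5 were also among the nearest 5 by the scanner software's log ratio, and 0 when likeness was measured by Pearson correlation.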

How the data were processed

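RNA of 8 samples was measured on 2-colour Agilent arrays, 1 for each strain and time. Per the file headers, the deposited scanner files give spot and background intensity in both channels, a log10 ratio of Cy5 over Cy3 from the scanner software (Agilent Feature Extraction, 10.5.1.1 in the headers of 5 files), and flags. The value table deposited by the authors holds log2 ratios; 5646 of its 5742 complete rows (98.3%) equalled 1 probe's log2 ratio within 0.01 in all 8 columns once 2 pairs of files were exchanged (control 10 min with cdc55 0 min, control 30 min with cdc55 20 min), against 2 with the files as attached, so they were used exchanged. Scale and direction follow from that match. Of the matched rows, 0 carried the name of the probe they matched, so the rows were named by their values. The column medians of the value table lay between -0.01 and 0.05, and no centring by the authors beyond the software's dye normalisation showed in it.

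Normalisation and tests ran in limma 3.58.1 under R 4.3.3 on median intensities; tables were handled in Python 3.11.15 (pandas 2.3.3, numpy 2.4.6) and drawn with matplotlib 3.10.9. Background was corrected by normexp (offset 50), followed by loess within arrays. Non-uniform spots were left out and the 2 spots of a probe averaged. Probes well above background in Cy5 on at least 3 arrays were tested, 6108 of 6256. The model held a term for each time and a strain term for unstressed and for stressed arrays, 6 coefficients with 2 residual and 3.93 prior degrees of freedom, and p-values were adjusted by Benjamini-Hochberg over all probes at 0.05. A response is the mean of 10, 20 and 30 min minus 0 min. The script was tested on simulated data. The number of arrays limits the precision.

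The 10 genes, the other lists and the tests were chosen with earlier results of these data known. Named are all 10 genes, each other listed gene past the threshold or, where a list has none, its largest change, the 5 probes nearest to ATG8, and CDC55, HSP12 and CTT1. MSN2 and MSN4 were also checked, and MSN2 was dim, with both channels well above background on only 2 arrays. No coordinates are printed, since the gene table's assembly differs from the build in the headers.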

Additional observations from a re-analysis of the deposited data

How the results depend on the processing

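The alternatives were no background subtraction, the scanner software's log ratio, median centring, the deposited value table, no filter or a stricter one on dim probes, an intensity trend, a strain term constant over time, the files as attached, and leaving out each stressed time. Rows of the value table were named by their match to the scanner software's log ratios. These 2 alternatives thus hold nearly the same values and are not separate checks. In the control strain, the count of the 10 genes that rose (3) and of all probes called (828) became 0 and 0 with the files as attached, 7 and 2464 with the constant strain term, 6 and 1750 without the 10 min arrays, 0 and 33 without 20 min, and 5 genes without 30 min. In the cdc55 strain, 1 and 256 became 3 and 546 with median centring, 0 and 0 as attached, 7 and 2464 with the constant strain term, 2 and 961 without 10 min, 0 and 13 without 20 min and 3 and 924 without 30 min, and 2 genes passed with the intensity trend; the constant term makes both responses equal by construction. The median of the 10 genes there (0.52) was 0.22 as attached and 0.85 without 30 min. ATG8 in the cdc55 strain did not pass with the scanner software's log ratio (limma adjusted p = 0.0770) or in the value table (0.0669), within a range of 0.00204 to 0.991, while ATG14 passed there in both (0.0472 and 0.0401) and in 6 of 12 alternatives. For the strain difference under stress, 1 of the 10 genes, ATG14, passed with the scanner software's log ratio, median centring, the value table and the intensity trend, and the count over all probes (135) became 403 with median centring, 0 as attached, 212 with the trend, 834 with the constant term, 1012 without 10 min, 0 without 20 min and 29 without 30 min. ATG39 there turned to 0.30 as attached. For the difference of responses, the median (-0.33) was -0.98 as attached, and 2 probes were called without 10 min against 0. Median centring moved the split of calls to 539 higher and 658 lower from 468 and 360 in the control strain, to 273 and 273 from 176 and 80 in the cdc55 strain, and to 146 and 257 from 22 and 113 in the stressed strain difference. Apart from the counts under leaving out a time, the constant term and the files as attached, which change the samples or the model, the cause was not tested. Counting, under other scalings, the genes below control at 30 min was added after seeing the data. A planned count of promoter motifs was not run, since no promoter sequence was used here. No paired analysis was possible because each strain and time has 1 array and the labels carry no replicate numbers. With 1 array per strain and time, the spread between cultures was not measured.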
